A study of Mus musculus with 80 samples.

Results

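Txnip and Gm15441 are mouse genes that are transcribed from opposite strands of the same stretch of chromosome 3. They were taken by symbol from a table of raw liver read counts, in which they are 2 of 78275 listed genes, and both passed the filter on low counts that left 21187 genes. They were selected on their fasting differences and on how their levels moved together across these libraries, so their fasting differences, time courses and relation are given as a description, without a test. The differences between the sexes did not enter that choice and were tested.

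TXNIP, the thioredoxin-interacting protein, is an alpha-arrestin. It binds thioredoxin and blocks its reducing activity, it lowers glucose uptake by removing glucose transporters from the cell surface, and it can join the NLRP3 inflammasome, a complex that activates caspase-1. Its gene is a classical target of the glucose-sensing factors ChREBP (Mlxipl) and MondoA (Mlxip), which act together with MLX. Gm15441 is a long non-coding RNA antisense to Txnip, known in liver as a target of PPARα, the fatty acid receptor that switches on fat oxidation and ketone production in fasting.

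The livers came from male and female C57BL/6J mice, an inbred strain, aged 8 to 12 weeks when bought and moved from a light and dark cycle to constant darkness. Control mice kept their food, and fasted mice had none from circadian time (CT) 10, so that the mice labelled fasted still had food at CT8. Every 4 h from CT8 to CT44, livers of 2 males and 2 females per treatment were collected, which gave 80 libraries of poly-A RNA, each from its own mouse by the titles. Groups follow the titles, because other labels give another sex for 40 libraries and another treatment for 40.

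Total counts per library lay between 25534901 and 59927771, with a median of 42303883. Xist, made from the inactive X chromosome, had 835 to 1634 CPM (counts-per-million units) in the libraries titled female and at most 2.05 in those titled male. The Y-linked Ddx3y had at least 57.6 in males and at most 0.384 in females. Hepatocyte markers such as Alb summed to at least 59140 CPM in every library from CT12 on, and each other marker list to at most 666. In whole liver, fewer cells of a type and less RNA per cell cannot be told apart. In 76 libraries the Txnip counts of a second deposited table, by exon, came to 1.64 to 1.88 times those of the gene table, but in the 4 fasted livers of CT40 to 0.409 to 6.28 times. Summed over those 4 livers they came to 1.77 times, within the range of the others. Whether columns of that time were exchanged between the tables was not tested. The averaged differences of both genes, their relation and the list counts were therefore also computed without fasted CT40.

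In the GENCODE M21 annotation of GRCm38, Txnip (ENSMUSG00000038393) lies on the plus strand at chr3:96557957-96561883, with 3123 exonic bases. Gm15441 (ENSMUSG00000074398) lies on the minus strand at chr3:96555765-96566801, with 1676 exonic bases. The whole of Txnip is inside this span, and the antisense gene starts 4918 bases beyond the 3′ end of Txnip and ends 2192 bases before its start. Exons of the 2 genes share 606 bases on opposite strands. The library kit keeps the strand, but the strand setting of the counting is not given in the sources used here, and counted without strand, reads of these bases could not be told apart. The liver with the most Txnip, at 65369 counts, had 221 counts of Gm15441. The submitters' processing notes name GRCm39, and positions were not converted.

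The first sequence is exon 2 of the longer Gm15441 transcript (chr3:96559678-96559842, minus strand, GRCm38), shown because all of its 165 bases, in capitals, are the reverse complement of bases 940 to 1104 of the coding transcript Txnip-201. The second is the 250 bases before the start of Txnip from RefSeq (GRCm38.p6, chr3:96557707-96557956, plus strand), shown because it holds boxes of the kind that ChREBP and MondoA bind. Its capitals mark, from left to right, a CCAAT box read on the minus strand, a CCAAT box on the plus strand, CACGAG boxes with the bases between them, and a TATA box.
Gm15441 exon 2: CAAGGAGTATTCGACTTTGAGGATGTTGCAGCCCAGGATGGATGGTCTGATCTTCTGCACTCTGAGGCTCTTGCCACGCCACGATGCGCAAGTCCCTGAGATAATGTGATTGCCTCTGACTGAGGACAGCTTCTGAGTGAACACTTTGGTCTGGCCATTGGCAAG
Txnip upstream: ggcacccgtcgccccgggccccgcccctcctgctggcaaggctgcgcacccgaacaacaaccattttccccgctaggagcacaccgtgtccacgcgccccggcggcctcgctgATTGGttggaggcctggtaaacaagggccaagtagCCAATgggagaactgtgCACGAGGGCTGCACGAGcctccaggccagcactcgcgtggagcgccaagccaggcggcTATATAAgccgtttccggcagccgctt

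Both strands were searched for 5 motifs, of which the first contains the second. CACGAG boxes set 5 bases apart began at position -85 from the start of Txnip, and of 32851 RefSeq promoters only this one held them (0.00304%). The boxes searched for have the letters of Txnip's own, and pairs of boxes with other letters were not counted. This share therefore does not show that such an element is particular to Txnip. Single CACGAG boxes began at -85 and -74, and 5.37% of promoters held one. CCAAT, at -137 and -102, was in 33.8% of promoters and TATATAA, at -27, in 3.04%. The E-box CACGTG, in 6.02% of promoters, was not among these letters. On the other strand, the window lies within an exon of the longer Gm15441 transcript (chr3:96557286-96558397).

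In fed mice Txnip was a moderately abundant transcript and Gm15441 was close to absent. The 40 control livers held 1415 to 9060 counts of Txnip and 1 to 38 counts of Gm15441. On the CPM scale, Txnip ran from 44.3 to 157 with a median of 68.0, and Gm15441 from 0.0215 to 0.814 with a median of 0.150. Per base of exon, Gm15441 stood at a median of 0.416% of Txnip in the same liver, with a range of 0.0610% to 2.54%. GENCODE M21, which gave the lengths, cuts the exons of Gm15441 into 8 bins, and the deposited exon table into 17. The length behind its counts may thus differ, which would scale all values per base.

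Control Txnip was highest late in the subjective day. It stood at 112 ± 35.6 CPM at CT8 and 101 ± 29.4 at CT32 (SD, n = 4 each), and was lowest at CT24 with 58.7 ± 6.27. A cosine of 24 h fitted to log2 CPM over the 40 controls peaked at 7.77 ± 0.88 h (SE) of circadian time, with 0.65 ± 0.13 log2 between peak and trough. The same fit to Gm15441 peaked at 4.96 ± 1.41 h with 0.97 ± 0.36 log2, on counts of 38 or fewer. Both genes had their highest control means at CT8 and CT32.

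Before food was removed the groups overlapped. At CT8 Txnip was at 90.4 and 172 CPM in males and 118 and 239 in females of the mice labelled fasted, and at 70.7 and 116 in males and 157 and 105 in females of the controls. Gm15441 at CT8 was at 0.444 and 2.52 CPM in males and 0.482 and 0.473 in females labelled fasted, against 0.502 and 0.284 in males and 0.382 and 0.0946 in females of the controls. The male at 2.52 CPM, with 106 counts, stood above every control liver while it still had food.

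Under fasting Txnip came in 2 waves with a low at CT28 and CT32 between them. At CT12, after 2 h without food, it was at 144 and 96.6 CPM in males and 239 and 171 in females. At CT16 it was at 182 and 273 CPM in males and 595 and 840 in females. Controls reached 80.8 CPM at CT12 and 84.2 at CT16, so no fasted liver overlapped them at either time.

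The first wave then faded, in males only after CT20. At CT20 Txnip was at 260 and 290 CPM in males and 464 and 318 in females, and at CT24 at 270 and 117 in males and 493 and 219 in females. At CT28 it was at 89.4 and 101 CPM in males and 125 and 290 in females. The lowest fasted liver of CT28 lay under the highest control, at 91.1 CPM. At CT32, the second daytime high of the controls, fasted livers had 125 and 172 CPM in males and 137 and 187 in females, while the controls reached 141 CPM. The ratio of the fasted to the control mean was 1.53 there and 7.47 at CT16.

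In the second wave single females stood far above the rest. At CT36 Txnip was at 176 and 194 CPM in males and 746 and 186 in females. At CT40 it was at 357 and 324 CPM in males and 451 and 2407 in females. At CT44, after 34 h without food, it was at 273 and 458 CPM in males and 1403 and 340 in females. All of these livers lay above the controls of their time, which reached 109, 78.3 and 64.7 CPM.

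Gm15441 went from near absence to as much as 205 CPM. The first high of its mean over 4 livers came at CT20, against CT16 for Txnip. In males Txnip too was higher at CT20 than at CT16, with mean log2 CPM of 8.10 and 7.80. The step of Txnip from CT16 to CT20 over both sexes was 0.29 log2, within a pooled SD of 0.76. At CT12 Gm15441 was at 0.497 and 0.236 CPM in males and 0.790 and 0.233 in females, overlapping controls that reached 0.299. The fasted livers there held 7 to 32 counts, and the ratio of the means was 2.74, against 2.29 for Txnip. At CT16 it was at 2.60 and 3.21 CPM in males and 4.89 and 19.7 in females. At CT20 it was at 107 and 82.6 CPM in males and 48.4 and 40.6 in females. From CT16 on no fasted liver overlapped the controls of its time, and the ratio of the means was 73.5 at CT16 and 489 at CT20.

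The low of its mean between the waves came at CT28 and CT32, as for Txnip, but only males showed it. Mean log2 CPM of Gm15441 at CT24, CT28, CT32 and CT36 was 5.64, 2.35, 3.21 and 5.73 in males. In females it was 3.16, 3.48, 3.09 and 2.93. At CT24 Gm15441 was at 44.4 and 56.2 CPM in males and 18.8 and 4.21 in females. At CT28 it was at 5.65 and 4.49 CPM in males and 7.68 and 16.1 in females, and at CT32 at 31.6 and 2.67 in males and 15.6 and 4.59 in females. The 4 livers of CT32 did not group by sex.

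In the second wave males had more Gm15441 than females at each time. At CT36 it was at 62.3 and 45.4 CPM in males and 34.2 and 1.64 in females. At CT40 it was at 81.1 and 87.5 CPM in males and 33.5 and 8.14 in females. At CT44 it was at 205 and 89.6 CPM in males and 16.9 and 42.4 in females. The male at 205 CPM, with 8832 counts, had the most Gm15441 of all livers, and the female of CT40 with 8.14 CPM was the one with the most Txnip.

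**Figure D1:**
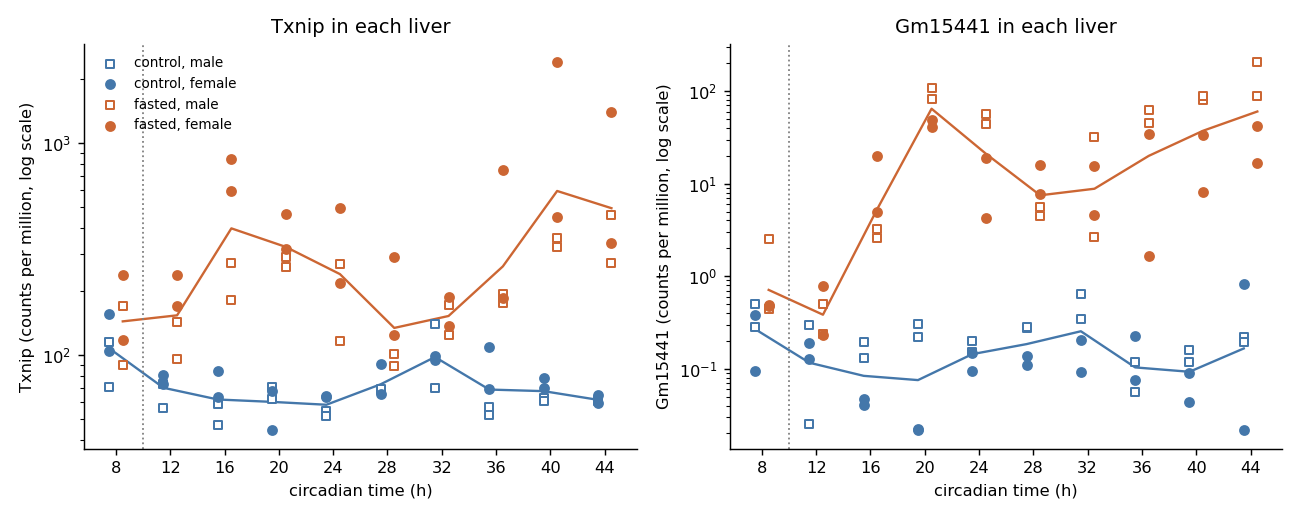
CPM (log axis) of Txnip and Gm15441 in each of the 80 livers against circadian time in hours, with control mice in blue, fasted mice in orange, males as open squares and females as filled circles. Lines join the geometric means of 4 livers, and the dotted line marks food removal. Fasted Txnip lies above the controls from CT12 to CT24 and from CT36 on, and fasted Gm15441 from CT16 on.

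Averaged over CT12 to CT44 with the sexes weighted equally, Txnip was higher in fasted livers by 2.07 ± 0.13 (SE) on the log2 scale, or 4.20-fold, and ranked 284th among the rises of 21187 genes. Gm15441 was higher by 6.65 ± 0.56, or 101-fold, and ranked first. Without fasted CT40 the differences were 1.91 ± 0.12 and 6.40 ± 0.54. In this contrast 62.5% of all genes were called at an adjusted p under 0.05. Fasted and control livers did not overlap at 7 of 9 times for Txnip and at 8 of 9 for Gm15441, from which nothing is read, since the contrast chose the genes.

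With the sexes weighted equally, the largest difference of the first wave came at CT16 in Txnip, at 2.69 ± 0.40 log2. In Gm15441 it came at CT20, at 9.64 ± 0.95. The smallest after CT12 came at CT32 in Txnip, at 0.62 ± 0.38, and at CT28 in Gm15441, at 5.36 ± 0.84. At CT40 they stood at 3.36 ± 0.41 and 8.69 ± 0.90. When the 20 means of treatment and time were put in order of log2 CPM, every mean of mice labelled fasted stood above every control mean for both genes. Of the 19 steps between neighbours in that order, 1 exceeded the pooled SD of its livers for each gene. For Txnip it lay between control CT32 and control CT28, and for Gm15441 between fasted CT16 and fasted CT8.

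Fasted females had more Txnip than fasted males. Over CT12 to CT44 the 18 fasted females ran from 125 to 2407 CPM with a median of 329, and the 18 fasted males from 89.4 to 458 with a median of 188. The mean of the females was higher at 9 of 9 times, and both females lay above both males at 5 of them. The difference, female minus male, was 1.08 ± 0.18 log2 (SE; edgeR's quasi-likelihood test, adjusted p = 3.935e-06), and 0.96 ± 0.17 without fasted CT40 (adjusted p = 1.96e-05). In this comparison 38.0% of all genes were called, 19.0% in each direction.

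In control livers the sexes were not told apart in Txnip. The 20 females ran from 44.3 to 157 CPM with a median of 71.6, and the 20 males from 46.7 to 141 with a median of 62.1. The difference was 0.23 ± 0.17 log2 (adjusted p = 0.293 by edgeR, where 39.2% of genes were called, 20.6% higher and 18.6% lower in females), which does not show that they were alike. The fasting difference of Txnip was larger in females by 0.88 ± 0.25 log2 (test of the interaction by edgeR, adjusted p = 0.0153), a test that called 12.4% of genes, 5.35% with a larger difference in females and 7.02% with a smaller one. Without fasted CT40 it was 0.77 ± 0.24 (adjusted p = 0.0378). The call was lost without replicate 1 of the males (0.95 ± 0.36, adjusted p = 0.204) and without their replicate 2 (0.85 ± 0.36, adjusted p = 0.232), where the size held and the error grew. It was also lost without replicate 1 of the females, where the size was 0.56 ± 0.20 (adjusted p = 0.0665).

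Gm15441 leaned the other way at most times. The 18 fasted males ran from 0.236 to 205 CPM with a median of 44.9, and the 18 fasted females from 0.233 to 48.4 with a median of 15.8. Both females lay below both males at CT20, CT24, CT36, CT40 and CT44, and above both at CT16 and CT28. The difference over all 9 times was -0.68 ± 0.30 log2 (edgeR, adjusted p = 0.0687) and missed the threshold. Over the same times without fasted CT40 it was -0.51 ± 0.32 (adjusted p = 0.222), and without replicate 1 of the females -1.46 ± 0.30 (adjusted p = 0.000534). Over CT20 to CT44, a window chosen after seeing the data, it was -1.23 ± 0.29 (adjusted p = 0.00077), and -1.10 ± 0.31 in that window without fasted CT40 (adjusted p = 0.00529).

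In control livers Gm15441 differed by -0.84 ± 0.69 log2 between females and males (edgeR, adjusted p = 0.356), on 1 to 38 counts. The fasting difference of Gm15441 differed between the sexes by 0.22 ± 0.74 (adjusted p = 0.938), an error too wide to place it.

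The ratio of the 2 transcripts in the same liver had a higher median in males than in females in both treatments, which was not tested. In control livers the medians were 0.638% in males and 0.258% in females. Per base of exon, Gm15441 stood at 0.455% to 139% of Txnip in the fasted males with a median of 39.4%, and at 0.254% to 23.8% in the fasted females with a median of 5.84%. The lowest male lay above the highest female at 5 of 9 times. These were CT20 with 53.0% against 23.8%, CT24 with 30.7% against 7.12%, CT36 with 43.5% against 8.54%, CT40 with 42.3% against 13.8% and CT44 with 36.5% against 23.3%. Only 1 liver, the CT44 male at 139%, had more Gm15441 than Txnip per base by the M21 lengths. By counts alone, without lengths, the highest ratio in fasted livers was 74.8%.

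**Figure D2:**
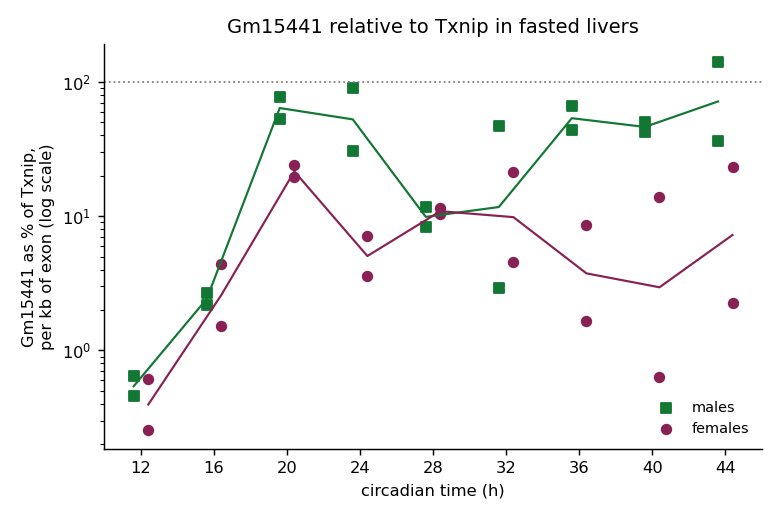
Gm15441 as a percentage of Txnip per base of exon (log axis) in each fasted liver from CT12 against circadian time in hours, with males as green squares, females as purple circles, lines through the geometric means of 2 livers and a dotted line where both are equal. The males lie above the fasted females at CT20, CT24, CT36, CT40 and CT44, while at CT28 and CT32 they overlap.

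Across livers of a treatment the transcripts were weakly correlated. Over the 40 control livers Pearson's r of log2 CPM was 0.34 and Spearman's rho 0.27, and over the 36 fasted livers of CT12 to CT44 0.31 and 0.40. These points share their times and a common scaling. Averaged by time, r was 0.76 over the 10 control times and 0.62 over 9 fasted times. With the mean of each time and sex taken out, r was 0.28 in controls and 0.10 in fasted livers, which rests on 20 and 18 pairs of mice. Without fasted CT40 the fasted values were 0.36 over 32 livers, 0.60 over 8 times and 0.31 within time and sex, so that the 4 livers of CT40 set how low the last of these was.

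The sexes differed in sign there. Within time and sex, r was -0.35 in the 18 fasted males and 0.22 in the 18 fasted females, and without CT40 it was -0.35 and 0.52 over 16 of each. The deviations of the mice of a pair mirror each other, so these values rest on 9 pairs of each sex, and on 8 without CT40. In 7 of 9 pairs of fasted males of the same time, the mouse with more Txnip had less Gm15441, as it did in 3 of 9 pairs of females, and in 6 of 8 and 2 of 8 without CT40. In controls this held for 2 of 10 pairs of males and 5 of 10 pairs of females. The difference between the sexes in this relation was not tested.

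**Figure D3:**
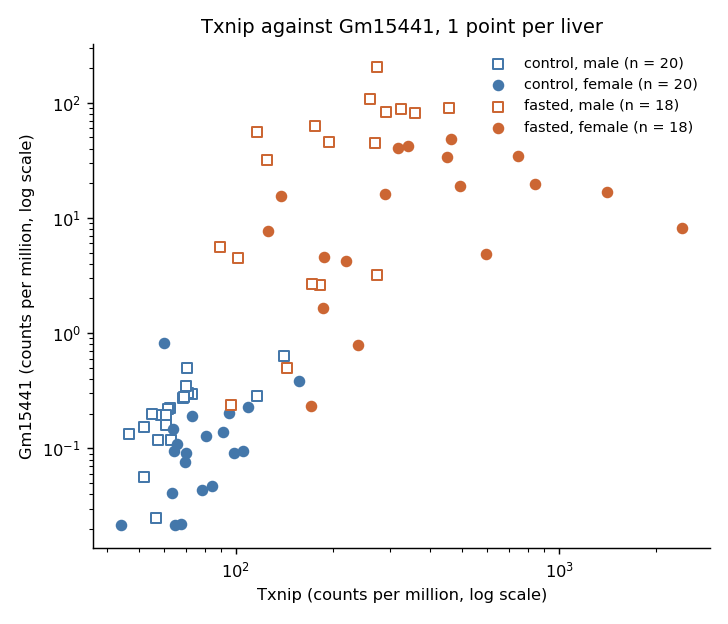
Gm15441 against Txnip in CPM, both on log axes, in the 40 control livers (blue) and the 36 fasted livers from CT12 (orange), with males as open squares and females as filled circles. Control livers form a low cluster in both genes, and fasted livers spread upwards with Pearson's r of 0.31 over 36 livers.

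Exon-level counts of Txnip held a small share from its introns. The 5 bins of the exon table that lie in introns of the coding transcripts cover 296 bases. They took 0.657 ± 0.456% of Txnip counts in the 36 control livers of CT12 to CT44 and 1.29 ± 0.70% in the 36 fasted livers (SD). At CT8, with food still present, they took 0.917 ± 0.497% in controls and 1.79 ± 0.663% in mice labelled fasted (n = 4 each). The higher mean was thus present before food removal, with overlapping ranges of 0.288% to 1.48% and 0.888% to 2.47%.

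The counts of Txnip over the overlap with Gm15441 were compared with a bin outside it. Bin 10 of Txnip lies almost wholly under an exon of Gm15441 on the other strand, and bin 12 serves for comparison. Their counts stood at a ratio of 1.14 ± 0.07 in controls and 1.14 ± 0.06 in fasted livers (SD, n = 36 each), while the means of Gm15441 were 0.107 and 20.4 CPM per kilobase.

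**Figure D4:**
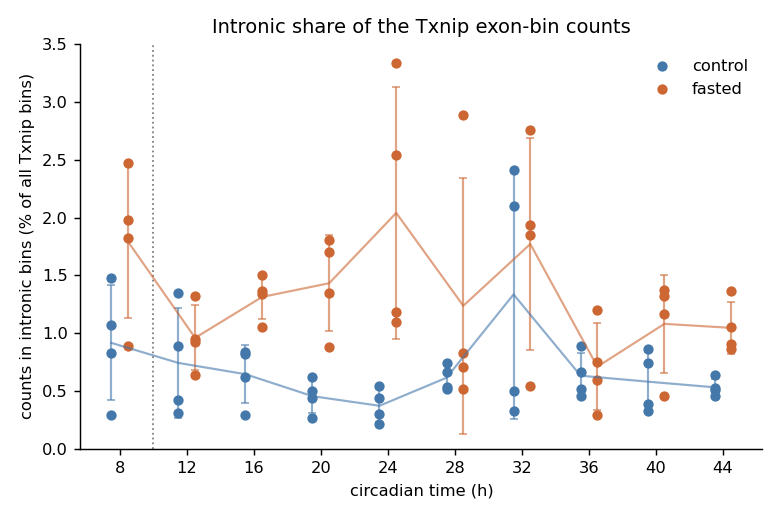
Share of Txnip exon-table counts in its 5 intronic bins, in percent, in each liver against circadian time in hours, in control (blue) and fasted mice (orange), with lines through the means of 4 livers and bars of 1 SD. The mean is 0.657% in control and 1.29% in fasted livers from CT12 on, and the groups overlap.

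The other targets of the 2 factors moved in different directions. Of 25 PPARα targets, 24 rose and 1 fell under fasting, against 29.5% and 32.9% of all genes, and their median difference was 1.26 log2 against -0.02 over all genes. This list and those below were chosen with earlier results of these data known, so their counts are not independent of the data. Cyp4a14 and Cyp4a10, fatty acid hydroxylases, rose by 4.91 ± 0.19 and 3.63 ± 0.12. Fgf21, a fasting hormone, rose by 3.95 ± 0.25, and Cpt1a, the gate of fatty acids into mitochondria, by 1.46 ± 0.05. Pdk4, which spares glucose, rose by 2.20 ± 0.17. Fabp1, a fatty acid carrier, fell by 0.38 ± 0.10.

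Txnip stood apart from most targets of ChREBP and MondoA. Of 20 others on that list 15 fell, 3 rose and 2 were not called, with a median of -1.05 log2. Of all genes 32.9% fell and 29.5% rose, with a median of -0.02. Pnpla3, a lipid droplet protein, fell by 4.36 ± 0.24 and Thrsp fell by 3.64 ± 0.19. Fasn, the fatty acid synthase, fell by 2.86 ± 0.13, and Pklr, the liver pyruvate kinase, fell by 1.89 ± 0.15. The 3 that rose were G6pc1, which releases glucose, by 0.89 ± 0.10, the alpha-arrestin Arrdc4 by 0.67 ± 0.08, and Gpd1 by 0.37 ± 0.08.

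The sensors themselves also split. Mlxipl, encoding ChREBP, fell by 1.22 ± 0.06 and its partner Mlx by 0.28 ± 0.04, while Mlxip, encoding MondoA, rose by 0.63 ± 0.04 and Ppara by 0.64 ± 0.07. In all, 6 of these 12 genes rose and 4 fell, beside 29.5% and 32.9% of all genes.

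Among the 4 other alpha-arrestins tested, 2 rose and 1 fell, beside 29.5% and 32.9% of all genes. In males alone 1 of the 4 rose. Besides Arrdc4, Arrdc2 rose by 0.38 ± 0.12, and Arrdc1 fell by 0.14 ± 0.06. The call of Arrdc1 was not kept by upper quartile scaling, by limma-voom or by any fit that left out 1 replicate. Arrdc3 differed by -0.27 ± 0.15 and was not called. Of 19 genes of the thioredoxin system 4 rose and 9 fell, beside 29.5% and 32.9% of all genes, with a median of -0.08. Without fasted CT40, 3 rose and 10 fell. Txn1, the thioredoxin that TXNIP binds, fell by 0.33 ± 0.03, and Txnrd1, its reductase, differed by 0.05 ± 0.03 (edgeR, adjusted p = 0.138). Glrx, a glutaredoxin, rose by 1.06 ± 0.05 and Srxn1 by 0.65 ± 0.05.

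Of 16 inflammasome genes 6 rose and 6 fell, with 29.5% and 32.9% of all genes called in these directions, which is close to the list's own shares. Il1rn, the antagonist of the interleukin-1 receptor, rose by 2.45 ± 0.13, Nlrp12 by 2.44 ± 0.14 and Il1r1 by 1.40 ± 0.11. Il18 fell by 0.90 ± 0.06, Pycard by 0.94 ± 0.14 and Casp1 by 0.34 ± 0.07. Nlrp3 differed by 0.07 ± 0.10 and Il1b by -0.02 ± 0.17, and neither was called. Of 6 Kupffer cell markers, macrophages that carry many of these genes, 5 fell, against 32.9% of all genes. Their sum ran from 184 to 666 CPM in controls and 126 to 405 in fasted livers. Of 5 cholangiocyte markers 4 fell, of 6 stellate cell markers 4 fell and 2 rose, and of 6 endothelial markers 3 fell and 2 rose. Of 7 blood and immune cell markers 1 fell, and of 6 hepatocyte markers 1 fell and 4 rose. The part of any cell type in these differences was not tested.

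Among 18 genes whose products handle TXNIP or are handled by it, 8 rose and 6 fell, beside 29.5% and 32.9% of all genes, and 9 rose without fasted CT40. The share that fell is that of all genes. Ddit4, a stress gene whose product binds TXNIP, rose by 1.76 ± 0.23. Itch and Nedd4l, ubiquitin ligases, rose by 0.31 ± 0.03 and 0.59 ± 0.05. The glucose transporters Slc2a1, Slc2a2 and Slc2a4 differed by 0.34 ± 0.06, -0.22 ± 0.08 and -2.06 ± 0.26, all called. Slc2a4 was low and uneven, at 1.88 ± 3.70 CPM in controls and 0.525 ± 1.14 in fasted livers (SD, n = 36 each).

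**Figure D5:**
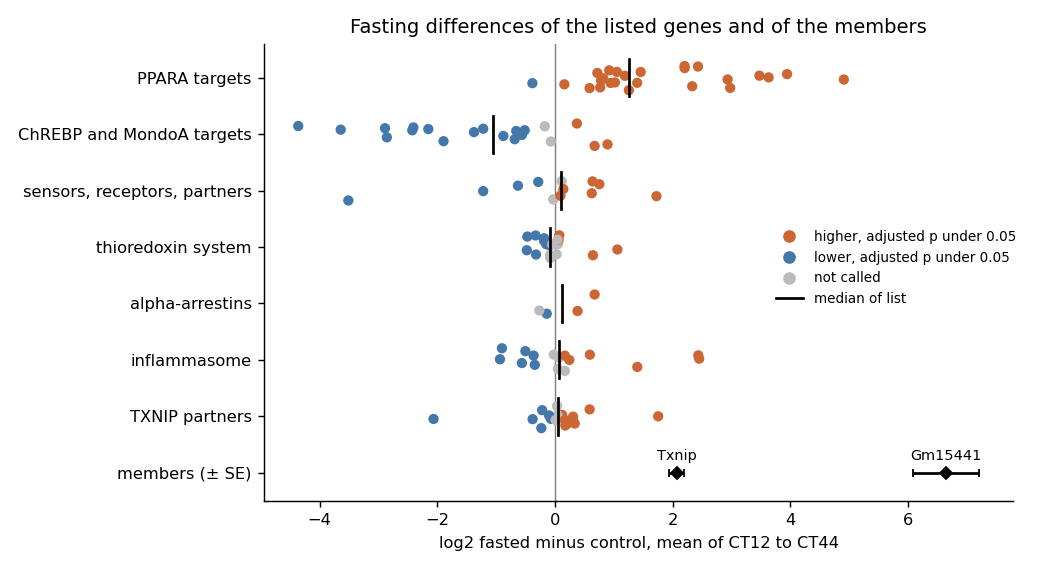
Fasting difference in log2 (fasted minus control, CT12 to CT44) of the genes of each list, with Txnip and Gm15441 (bars of 1 SE) below them. Points are orange where higher, blue where lower and grey where not called, and black lines are list medians. PPARα targets lie mostly above 0, with a median of 1.26, and targets of ChREBP and MondoA mostly below, with a median of -1.05.

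Genes next to the locus differed by less than both members. Of 18 annotated genes within 100 kb, 8 were tested, of which 4 rose and 1 fell. Of all genes 29.5% rose and 32.9% fell, and the 62.5% called among them is the share called near the locus. Polr3gl rose by 0.23 ± 0.05, Itga10 by 0.18 ± 0.08 and Rbm8a by 0.16 ± 0.03, and Lix1l fell by 0.18 ± 0.04. Gm9207, Rpl21-ps11 and Hjv differed by 0.27 ± 0.18, 0.03 ± 0.07 and 0.01 ± 0.04 and were not called. Among 1997 pairs of genes with exons that overlap on opposite strands, 6 pairs had both differences at least as large as that of Txnip, this one included.

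Over the 20 means of treatment and time, the genes most like Txnip among 11832 were Slc25a33 with r of 0.980, Zfp36l2 with 0.974, Mef2a with 0.973, Josd1 with 0.973 and Hyal2 with 0.968. Those that ran most against Txnip were Gm15446 with -0.968, Hdhd3 with -0.966 and Bcs1l with -0.958. Most like Gm15441 were Cyp4a31 with 0.983, Slc27a1 with 0.983, Agpat3 with 0.980, Cidec with 0.979 and Slc25a22 with 0.979. Sgsm1 with -0.982, Srebf1 with -0.979 and Lin7a with -0.977 ran most against it. Txnip and Gm15441 had r of 0.913 with each other, which placed Gm15441 at rank 158 for Txnip and Txnip at rank 330 for Gm15441. The means share their livers and scaling. They also pool both treatments, and both members were chosen for their difference between these, so a high r was built in. Within a treatment the members' r over the times was 0.76 in controls and 0.62 in fasted livers. Likeness of the other genes named here spans both treatments too. Without fasted CT40 the members' r was 0.908 over 19 means.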

How the data were processed

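The deposited table of gene counts held whole-number counts that the authors made from stranded paired-end reads of poly-A RNA from 80 mouse livers, and the deposited exon table held counts per exon bin. The submitters' processing notes name Trimmomatic, HISAT2, DESeq2 and GRCm39. The counter and its strand setting are not given in the sources used here, and the publication is a review without methods for these files. A deposited table of normalised values was not used. Here, genes were filtered with filterByExpr, scaled by TMM and fitted with edgeR 4.0.16 in R 4.3.3 as a mean per treatment, time and sex. Contrasts were tested with its quasi-likelihood test (two-sided) and adjusted by Benjamini-Hochberg over all 21187 genes, with a threshold of 0.05. The sex difference in controls covered CT8 to CT44 and all other averages CT12 to CT44. CPM are TMM-scaled, and log2 CPM have a prior count of 2. The fit was tested on simulated data with 100 genes changed at each of 2 sizes, and recovered 100 of 100 for the fasting difference at both. The genes there had at least 1 CPM, which no control liver reached for Gm15441. Recovery at that control level, or at the spread of Txnip and Gm15441 between fasted mice, was not tested.

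The members and gene lists were chosen with earlier results of these data known. Named were the members, from up to 4 rises and 4 falls per list and from genes of known role, of which a selection is given, neighbours within 100 kb, and the 5 genes most and 3 least alike. Same-numbered replicates did not pair, since their deviations correlated with a median of 0.0038 in males and 0.0015 in females. Alternatives were other scalings, filters, tools, sexes, times and left-out libraries, whose effects follow below. Single values of some genes in the lists and near the locus are not reported here.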

Additional observations from a re-analysis of the deposited data

Results flagged for a closer look

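In groups of 4 livers, 6 single livers stood apart from the rest by Dixon's criterion, among 40 groups tested for the 2 genes, and chance alone sets apart about 1 in 20 groups. For Txnip these were control CT28 female 1 at 91.1 CPM, fasted CT36 female 1 at 746 CPM, fasted CT40 female 2 at 2407 CPM and fasted CT44 female 1 at 1403 CPM. For Gm15441 they were male 2 of the mice labelled fasted at CT8, at 2.52 CPM before food removal, and fasted CT16 female 2 at 19.7 CPM. All 4 of the Txnip livers were female.

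The fitted effect of fasting on Txnip was larger in females, by 0.88 log2 when the difference between the sexes was tested directly. That call was lost in 3 of the 4 fits that left out a replicate, and without replicate 1 of the females the value was 0.56.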

How the results depend on the processing

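Over 26 results and 414 alternatives, 383 kept the direction and the side of the threshold, or stayed within the stated margin. The fasting difference stayed between 1.63 and 2.51 log2 for Txnip and between 6.39 and 7.48 for Gm15441. Without a filter on low counts, sex differences were called in controls for Txnip (0.23) and Gm15441 (-0.85) and in fasted livers for Gm15441 (-0.69). DESeq2 called Gm15441 in controls (-0.90), and it was called in fasted livers over CT20 to CT44 (-1.23), in that window without fasted CT40 (-1.10) and without female replicate 1 (-1.46). Leaving out 1 replicate moved these differences over 0.15 to 0.33, -1.45 to -0.59 and -1.46 to -0.19, and that in the fasting effect of Txnip over 0.56 to 0.95, with its call lost in 3 of 4 fits. That call was also lost over CT20 to CT44 without fasted CT40 (0.74). List counts that moved by over 1.5 times were these. The PPARα targets that fell were 0 in females alone, with 0 to 1 on leaving out a replicate. The thioredoxin genes that rose were 2 without a filter, with 2 to 5. The alpha-arrestins that rose were 1 in males alone and over CT20 to CT44 without fasted CT40, with 1 to 2, and those that fell were 0 with upper quartile scaling, with limma-voom, in males alone, without fasted CT40 female replicate 2 and without any 1 replicate. The other counts moved by at most 1.5 times, for example the TXNIP partners that rose (7 to 11 against 8) or fell (4 to 6 against 6). In males alone the relation was 0.68 in controls and 0.61 in fasted livers, and within time and sex it turned to -0.35. Without fasted CT40 the fasted relation within time and sex was 0.31. The cause was not tested.

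With the replicate block, the fasting difference was 2.07 for Txnip and 6.65 for Gm15441, the sex difference of fasted Txnip was 1.16, and no call of either gene changed. The ChREBP and MondoA targets that fell were 16 in place of 15. Alternatives chosen after seeing the data were those without the control CT8 library of lowest depth, without fasted CT40, without its female replicate 2, and CT20 to CT44 for the sex tests, also without fasted CT40. The relation within time and sex has no value without a replicate, since it needs both mice. Control Gm15441 rests on 1 to 38 counts, which limits its sex difference.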

Other observations

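Differences between fasted mice of the same time and sex, of which there were 18 pairs, linked Gm15441 with PPARα targets. This was looked at after the values were seen and is a description, in which the points share libraries and scaling. Of 25 PPARα targets, 17 (68.0%) had a Pearson's r of at least 0.5 with Gm15441, against 5.73% of 11831 genes, with a median of 0.628, and of 0.617 without CT40. The genes that varied most alike with Gm15441 were Acot2 (0.879), Ehhadh (0.861), Acaa1b (0.856), Acot1 (0.852) and Pex11a (0.851), all of fatty acid or peroxisome metabolism. With Txnip, 2 of the 25 targets (8.00%) reached 0.5, against 15.1% of all genes, and 4 of the 25 were at -0.5 or below, against 14.3%. Their median was -0.127, and 0.05 without CT40. One of these 2 targets, Angptl4, an inhibitor of lipoprotein lipase, varied with Txnip at 0.921, second to Gm43189 at 0.925, and these were 0.890 and 0.898 without CT40. Znfx1 (-0.907) and Stat2 (-0.904), genes of the interferon response, ran against Txnip, at -0.870 and -0.868 without CT40. Txnip differed widely within the female pairs of CT36 (746 and 186 CPM), CT40 (451 and 2407) and CT44 (1403 and 340). The values without CT40 still hold the pairs of CT36 and CT44. Whether the r values with Txnip hold without all of these pairs was not tested.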
